A study of Camellia sinensis with 24 samples.

Results

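The roots of tea genotype “1601” that stayed in a K-containing solution while the other side of the same root system had none (Sp.NK) were compared with roots of the same genotype that had K on both sides (U.NK). Both groups grew in solution with 1 mM K2SO4, so the K supplied to the sampled roots themselves was equal, and the groups differed in what the opposite compartment held: 0 mM on Sp.NK and 1 mM on U.NK. Every library with those labels was taken, 3 of Sp.NK and 3 of U.NK, which makes 6 of the 24 libraries of the series. All plants were cuttings of a single hybrid tea genotype that tolerates low K poorly. They were grown with K for 60 days before a treatment of several days, several to a hydroponic box, and roots of each compartment were then collected apart. The tissue was root in every library, and each group describes the roots of 1 clone. The other groups used for comparison were the K-free side of the split plants of “1601” (Sp.SK), “1601” with no K on either side (U.SK), and the Sp.NK and U.NK roots of “1511”, a low-K tolerant genotype of the same cross. The sources do not say whether Sp.NK and Sp.SK libraries with the same number came from the same box.

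A root that still has K learns of the shortage on the other side through signals inside the plant, and split-root designs are used to reveal such systemic responses. Potassium enters root cells through carriers of the HAK/KUP/KT family and through voltage-gated channels, driven by proton pumps, and K shortage is relayed in Arabidopsis by calcium-dependent kinases of the CIPK family, by reactive oxygen and by ethylene. Growth in a nutrient-rich patch is known to need sugar import, water uptake, loosening of the cell wall and new cells.

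Reads counted on genes ran from 19233107 to 23704712 per library on Sp.NK and from 13214833 to 17860043 on U.NK, so every Sp.NK library was deeper than every U.NK library. Pearson correlations of log2 CPM, the counts scaled to equal library totals, between replicates were 0.964 to 0.973 on Sp.NK and 0.976 to 0.980 on U.NK, and the common biological coefficient of variation was 0.270 and 0.176. The Sp.NK group was thus the more variable. On the first principal component of the 12 libraries of “1601”, which held 36.2% of the variance, the U.NK libraries lay between 56.3 and 65.2, Sp.NK replicates 1 and 3 at −37.3 and −54.3, and Sp.NK replicate 2 at 5.87. Of the Sp.NK libraries, replicate 2 was thus the closest to U.NK. Genes of the DUF588 domain were taken as a root marker, since the family includes the Casparian strip membrane proteins of the root endodermis. Their summed FPKM (a read density that also corrects for gene length) was 1057 to 1312 on Sp.NK and 1136 to 1344 on U.NK. A sum over the whole family does not by itself bear out the root label. Genes of green tissue were read as well. Chlorophyll-binding proteins summed to 334 to 849 FPKM on Sp.NK and 892 to 1029 on U.NK, photosystem proteins to 448 to 987 and 1025 to 1248, and the Rubisco small chain to 368 to 485 and 461 to 509, with 3 of 26, 9 of 39 and 0 of 5 genes at 0 in all 6 libraries. The sums of the first 2 families were lower on Sp.NK without overlap, and their part in the results below was not tested.

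Between roots on the K side of the split plants and roots with uniform K, more genes were called lower than higher. Of 35557 genes tested, 320 were called at a Benjamini-Hochberg adjusted p-value under 0.05 in edgeR's quasi-likelihood test over all 24 libraries, which is 0.900% of those tested. On Sp.NK 100 were higher (0.281%) and 220 lower (0.619%). The counts of called list members given below are to be read beside these shares. The lower genes also moved further, with a median log2 fold change of −1.64 against 1.21 for the higher ones. A log2 fold change of at least 2 in size was reached by 88 of the lower and 21 of the higher genes. In 318 of the 320 genes the Sp.NK and U.NK libraries did not overlap, against 27.2% of all genes tested. Pfam domains were listed for 82 of the higher and 160 of the lower genes, and 62 of the 320 calls, 15 higher and 47 lower, were genes newly assembled by the authors from the reads. The count depended on the fit. It was 1339 with the 12 libraries of “1601” alone, 1116 with edgeR on the 6 libraries compared, 2780 with DESeq2 on these and 2506 with limma voom, where 42.4%, 36.4%, 41.5% and 43.3% of the calls were higher against 31.3% here. It ran from 28 to 686 with 1 of the 6 libraries left out, and was 339 with every library thinned to the same total, an alternative added after the data were seen. In each of these fits more genes were lower than higher. In whole roots, fewer cells of a type and less RNA per cell cannot be told apart. All differences given below are of Sp.NK against U.NK on the log2 scale, with the standard error of the fit, and levels are in CPM scaled by TMM unless FPKM is named. Reads of closely related genes may have been split between them, because the counting program and its use of strand are not given in the sources used here.

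**Figure D1:**
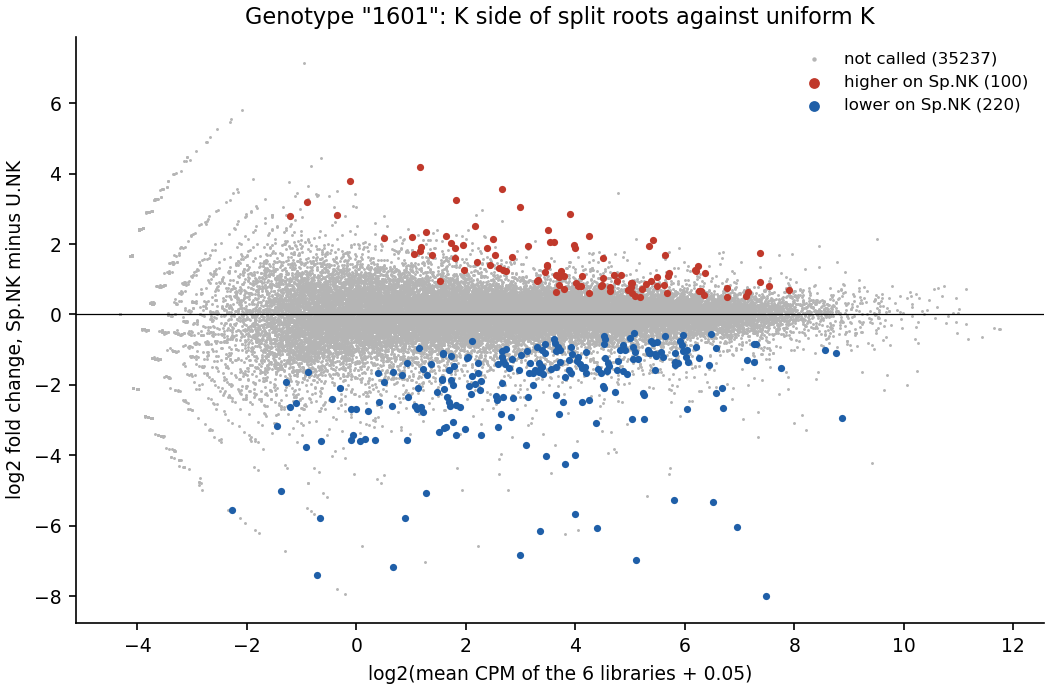
Each point is 1 of the 35557 genes tested, with the log2 of its mean CPM over the 6 libraries (plus 0.05) on the x axis and the log2 fold change of Sp.NK against U.NK on the y axis. The 100 called higher genes (red) lie below a log2 fold change of 4.19, whereas the 220 called lower genes (blue) reach −8.0.

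The genes that fell furthest were almost silent on Sp.NK and strongly read on U.NK. TEA032173, a gene of 1 exon with no Pfam domain (scaffold 1316, 969596 to 970444, minus strand), had 134, 474 and 467 CPM on U.NK and 0.358, 3.61 and 0.161 CPM on Sp.NK. Its log2 fold change was −8.0 ± 1.62 (adjusted p = 0.025), and the highest Sp.NK value belonged to replicate 2. TEA025086, a protein with the RlpA-like double-psi barrel found in expansins and related wall and defence proteins (scaffold 3629, 89362 to 96234, plus strand, 3 exons), had 110, 349 and 270 CPM on U.NK and 4.29, 6.84 and 0 CPM on Sp.NK. The change was −6.04 ± 1.28 (adjusted p = 0.031). TEA025076, which carries the same barrel and an RNA recognition motif, lies 12007 bases from it on the same strand of scaffold 3629 (74528 to 77355), and ran from 60.8 to 165 CPM on U.NK and from 0 to 5.44 on Sp.NK (−5.26 ± 1.20, adjusted p = 0.042). Both neighbours were thus nearly lost together, and as related sequences they could share reads.

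TEA011400 encodes a protein with the hypoxia induced protein region, known from a mitochondrial family that assembles respiratory complexes (scaffold 815, 261683 to 279835, minus strand, 5 exons). It stood at 64.6, 255 and 214 CPM on U.NK against 1.64, 11.3 and 0.322 on Sp.NK (−5.33 ± 1.22, adjusted p = 0.042). TEA004943, a class-I fructose-bisphosphate aldolase of glycolysis (scaffold 968, 1379721 to 1384976, minus strand, 3 exons), had 9.93, 88.5 and 25.1 CPM on U.NK and 0.204, 1.36 and 0.241 on Sp.NK (−6.06 ± 1.14, adjusted p = 0.017). A newly assembled gene with no Pfam domain ran from 11.4 to 45.4 CPM on U.NK and from 0 to 1.36 on Sp.NK (−5.67 ± 1.32, adjusted p = 0.045). In each of these the groups were far apart, yet the U.NK libraries themselves differed several-fold.

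For 6 more of the lowest genes a fold is not given, since at least 2 Sp.NK libraries held 2 or fewer reads and the fitted value depends on the small count added by the fit. TEA003778 (no Pfam domain) had 0, 36 and 1 reads on Sp.NK and 324, 2643 and 450 on U.NK. Reads on TEA019207 (no Pfam domain) numbered 0, 8 and 1 against 69, 632 and 92. A newly assembled early nodulin gene, which another newly assembled gene overlaps on the other strand, had 2, 17 and 0 reads against 78, 644 and 254. The 3 others, TEA004995 and a pair of newly assembled genes, all without a Pfam domain, held between 0 and 6 reads per library on Sp.NK and between 10 and 156 on U.NK. Their adjusted p-values ran from 0.0042 for TEA004995 to 0.046 for one of this pair. With limma voom TEA003778, TEA019207 and the nodulin gene were not called (adjusted p = 0.104, 0.080 and 0.101). Among them TEA004995 alone was called in each of the 6 fits that left out 1 library.

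The genes that rose furthest started from low levels. TEA026389, a transcription factor with a Myb-like domain (scaffold 535, 508955 to 527489, plus strand, 7 exons), had 10.2, 7.44 and 5.07 CPM on Sp.NK and 1.84, 0.776 and 1.36 on U.NK. The change was 2.52 ± 0.38 (adjusted p = 0.0044), and it was called whichever of the 6 libraries was left out. TEA026499, a cytochrome P450 (scaffold 3709, 260935 to 265504, minus strand, 5 exons), was even across replicates, with 16.4, 12.2 and 13.6 CPM on Sp.NK against 0.956, 1.94 and 2.19 on U.NK (3.04 ± 0.59, adjusted p = 0.019). Another P450, TEA032149, had 35, 31 and 44 reads on Sp.NK and 1, 2 and 2 on U.NK (adjusted p = 0.033). It overlaps TEA032141 on the other strand, so the source of its reads is not certain.

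TEA031848, an ABC transporter of the PDR type, which in other plants exports resins, hormones and defence compounds (scaffold 2638, 4104 to 19716, plus strand, 21 exons), had 23.5, 12.1 and 21.3 CPM on Sp.NK and 4.12, 2.83 and 3.92 on U.NK (2.39 ± 0.51, adjusted p = 0.032). TEA029779, of the EamA-like family of metabolite carriers, had 9.10, 3.83 and 6.03 CPM against 0.735, 0.388 and 0.905 (3.24 ± 0.74, adjusted p = 0.045). An amino acid transporter, TEA003908, ran from 4.72 to 13.4 CPM on Sp.NK and from 1.47 to 2.64 on U.NK (2.15 ± 0.42, adjusted p = 0.021). A newly assembled gene with the galacturonan-binding domain of wall-associated receptor kinases had 28.3, 14.9 and 35.7 CPM against 1.99, 3.27 and 5.58 (2.86 ± 0.57, adjusted p = 0.023). In these 4 genes replicate 2 was the lowest of the Sp.NK libraries, though still above every U.NK library.

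The rest of the 12 largest increases were TEA025126 (amidase and M41 peptidase domains, 109, 48 and 122 reads on Sp.NK against 5, 4 and 1), TEA025541 and a newly assembled gene without a Pfam domain, TEA028113 with an RNA recognition motif, the ring finger protein TEA002778 and a newly assembled gene with a cysteine-rich membrane module linked to stress tolerance. Of these 6, the newly assembled gene without a domain had 22.3, 8.97 and 3.58 CPM against 0.515, 1.22 and 1.13 (3.58 ± 0.66). Adjusted p-values in the group ran from 0.015 for this gene to 0.049 for TEA025126.

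**Figure D2:**
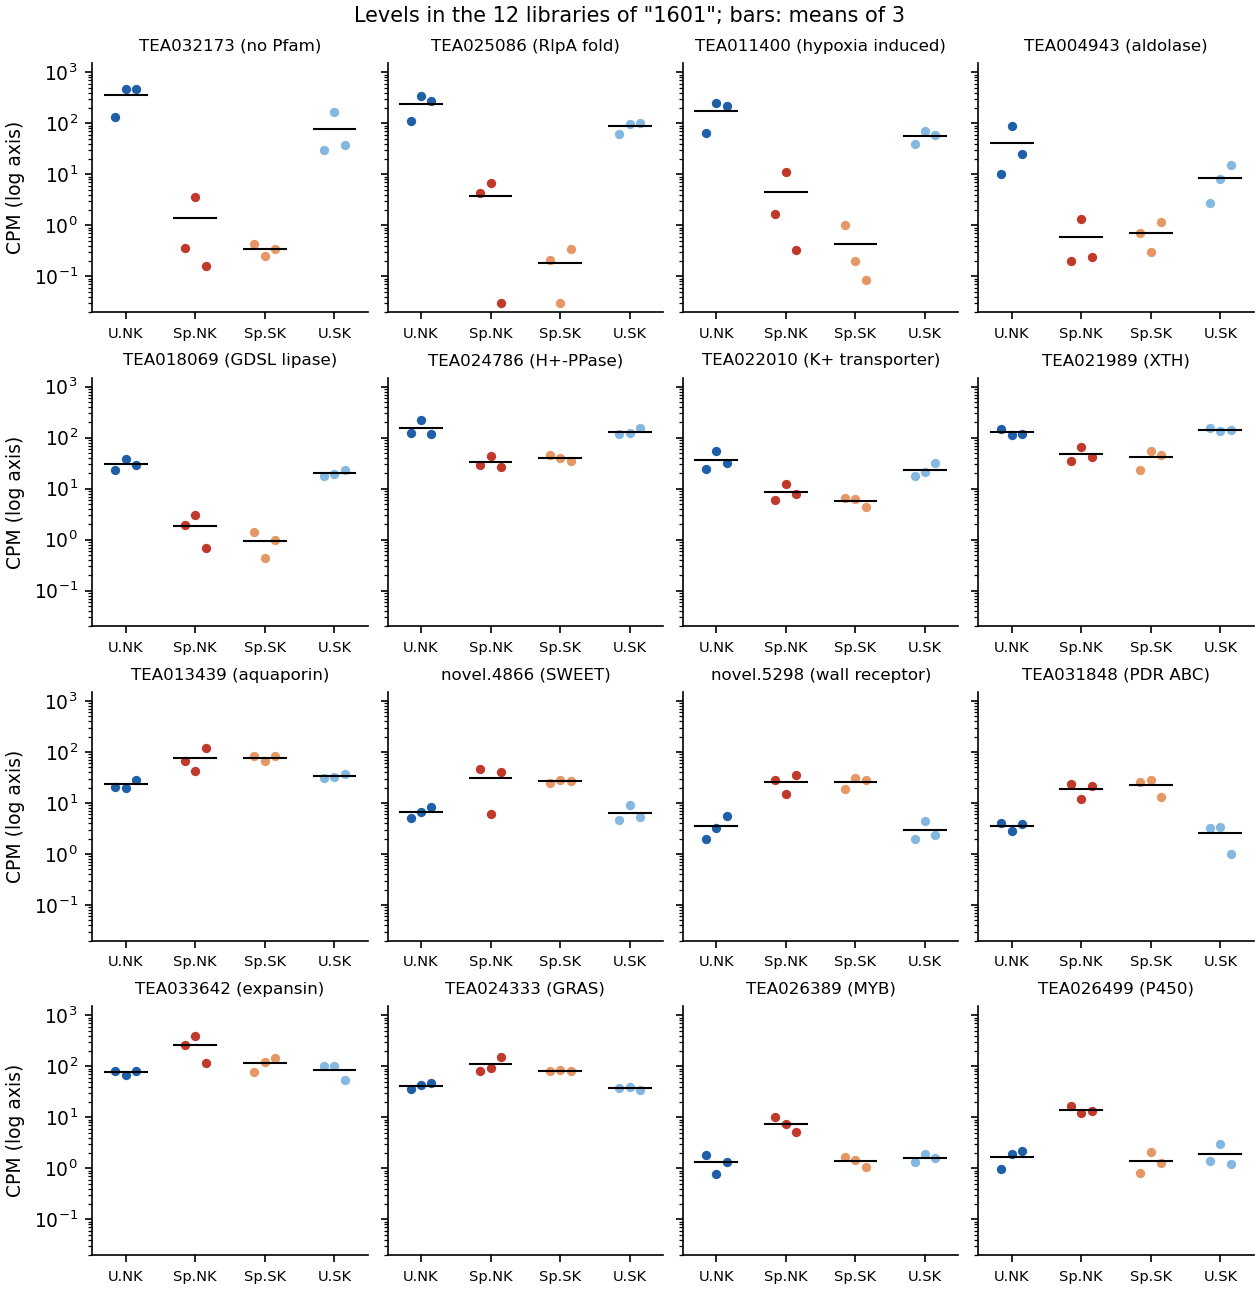
CPM of 16 genes in each of the 12 libraries of “1601” (points, log axis) by condition, with the mean of the 3 libraries as a bar, and values below 0.03 drawn at 0.03. The first 8 genes are lower and the other 8 higher on Sp.NK, both against U.NK, and in most panels Sp.SK sits with Sp.NK while U.SK sits with U.NK. The exceptions are TEA026389 and TEA026499, whose 3 Sp.NK libraries stand above all the others, and TEA033642.

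Carriers of K were examined as the most direct link to the treatment. Of 83 tested genes of K carriers and channels 0 were called higher and 2 lower, with a median of 0.03 beside 0.00 for all genes tested. TEA022010, of the HAK/KUP/KT type (scaffold 1271, 480121 to 486403, minus strand, 9 exons), had 6.03, 12.3 and 7.84 CPM on Sp.NK and 24.3, 55.8 and 31.3 on U.NK (−2.09 ± 0.50, adjusted p = 0.049, or 0.051 with no filter on low counts). TEA010797, a channel with the KHA domain of plant voltage-gated K channels (scaffold 35, 2741741 to 2765877, plus strand, 12 exons), had 6.23, 5.61 and 4.50 CPM against 16.6, 19.6 and 9.96 (−1.50 ± 0.32, adjusted p = 0.031). Both were lower in all 3 Sp.NK libraries than in any U.NK library. The carriers of the list with the most reads were not called. TEA005066 stood at 167 ± 7.34 CPM on Sp.NK and 241 ± 40.5 on U.NK (SD, n = 3; adjusted p = 0.375), and TEA021417 at 130 ± 15.4 and 113 ± 4.51 (adjusted p = 0.493). The libraries of TEA005066 did not overlap between the groups, and DESeq2 on the 6 libraries called it lower (adjusted p = 0.020). With the spread estimated from the 12 libraries of “1601” alone, which called 4.05% of 33093 genes, 2 of the list were higher and 4 lower.

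Proton pumps and cation exchangers had 0 higher and 2 lower of 136 tested. The proton-pumping pyrophosphatase TEA024786, which energizes the vacuole (scaffold 308, 609468 to 618989, plus strand, 8 exons), was one of the most abundant of the lower genes. It had 29.4, 44.2 and 26.3 CPM on Sp.NK and 124, 226 and 116 on U.NK (−2.22 ± 0.34, adjusted p = 0.0044), and was called in all 6 fits that left out a library. The other, TEA002424, a P-type cation ATPase, changed by −1.27 ± 0.25. Its neighbour TEA002420, the C-terminal part of such an ATPase that lies 3939 bases away, changed by −1.32 ± 0.29, so both may be parts of 1 gene. In the signalling list, 1 of 148 kinases with a NAF domain and type 2C phosphatases was called: the CIPK-type kinase TEA006064 was higher on Sp.NK (61.2, 39.1 and 64.8 CPM against 24.1, 27.8 and 33.5, 0.95 ± 0.22, adjusted p = 0.045, or 0.051 with no filter on low counts).

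Among other nutrient carriers, the POT family gene TEA014284, of the nitrate and peptide carriers, was lower (−2.14 ± 0.39, adjusted p = 0.014) as the sole call of 90 tested. The sole call of 106 genes in the metal transport list was TEA032049, which was lower (20.3, 22.7 and 19.5 CPM against 40.8, 68.7 and 40.2, adjusted p = 0.019). It is an aluminium-activated malate transporter, a family that the list took in by name and that carries malate. The main edgeR fit thus called no metal carrier. In that list 6 higher and 20 lower genes had an unadjusted p under 0.05. The 12-library fit called 2 of its genes higher and 8 lower, DESeq2 called 16 and voom 17. Summed CPM of the metal list was 3898 to 4482 on Sp.NK and 4892 to 5088 on U.NK, without overlap. Of 87 phosphate and sulfate carriers edgeR called 0, with 8 at an unadjusted p under 0.05, as had 15.9% of all genes tested. The 12-library fit called 2 of the list, DESeq2 5 and voom 2, where they called 1339 (4.05%), 2780 and 2506 genes in all. Nitrite reductase TEA031088, which reduces nitrite to ammonium in plastids, was higher in each Sp.NK library (216, 211 and 219 CPM against 105, 114 and 124, 0.91 ± 0.15, adjusted p = 0.0087). It was singled out after its values were seen.

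Both aquaporins called of 42 tested were higher, and the median of the list was 0.27. TEA013439 (scaffold 2727, 594074 to 596472, plus strand, 3 exons) had 66.1, 42.5 and 118 CPM on Sp.NK and 21.1, 20.2 and 28.8 on U.NK (1.70 ± 0.34, adjusted p = 0.021). The other, newly assembled, had 14.4, 10.6 and 13.9 CPM against 5.88, 7.37 and 6.86 (0.95 ± 0.16, adjusted p = 0.010). Sugar carriers had 1 higher and 2 lower of 97 and a median of −0.29. The abundant hexose-type carrier TEA013461 had 204, 279 and 271 CPM on Sp.NK and 647, 367 and 489 on U.NK (−1.0 ± 0.20, adjusted p = 0.025). A second carrier of that family, TEA000047, changed by −1.83 ± 0.38. A newly assembled SWEET-type exporter was called higher at 46.2, 5.99 and 41.0 CPM against 5.00, 6.81 and 8.22 (2.22 ± 0.52, adjusted p = 0.048). Its replicate 2 lay within the U.NK range, and it was 1 of the 2 called genes whose libraries overlapped. The call was lost with edgeR on the 6 libraries, DESeq2 and voom (adjusted p = 0.084, 0.062 and 0.053).

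Enzymes of starch and sucrose gave 0 edgeR calls of 122, cellulases 0 of 24 and beta-glucosidases 0 of 61, with 15, 4 and 8 genes at an unadjusted p under 0.05. Of the cellulases the most read, TEA029958, stood at 182 ± 13 CPM on Sp.NK and 209 ± 18.7 on U.NK (SD, n = 3), and TEA031308 at 50.9 ± 26.7 and 49.2 ± 6.16, with adjusted p-values of 0.751 and 0.992. In the 12-library fit these lists gave 2, 1 and 4 calls, with DESeq2 8, 2 and 10, and with voom 5, 2 and 4. Over all genes the same 3 fits called 1339 (4.05%), 2780 and 2506. An unadjusted p under 0.05 in the main fit was reached by 15.9% of all genes tested. Outside the lists, phosphoenolpyruvate carboxykinase TEA015503, which draws carbon from malate toward sugar, was lower (26, 67.6 and 22.5 CPM against 189, 157 and 151, −2.10 ± 0.44, adjusted p = 0.031). It, too, was picked after its values were seen.

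**Figure D3:**
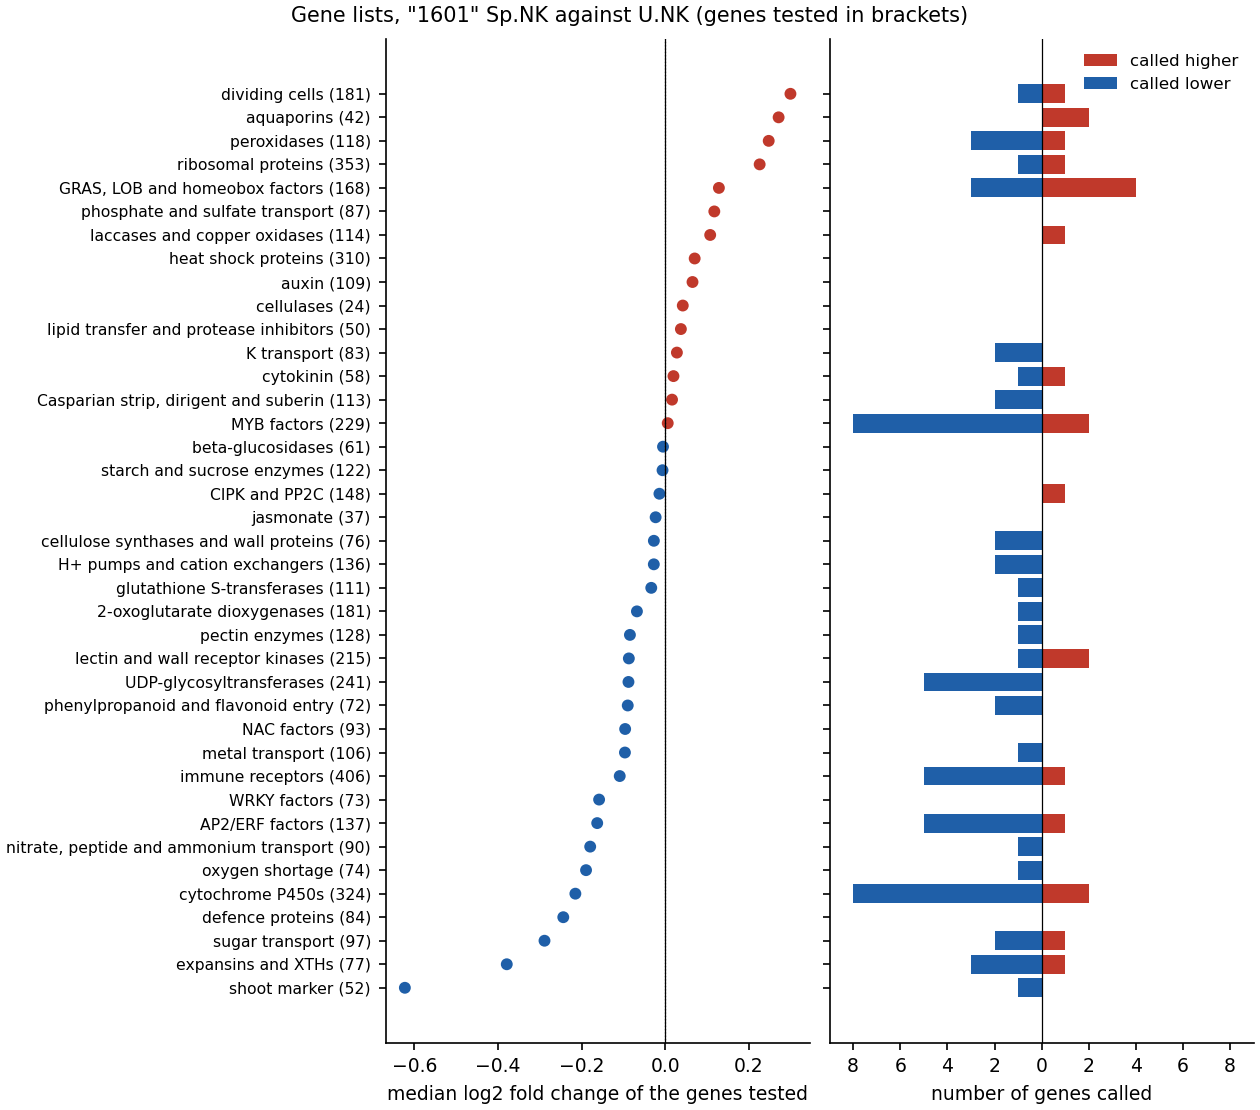
For each of the 39 gene lists, the left panel gives the median log2 fold change of its tested genes (number in brackets) and the right panel the number of genes called higher (red) or lower (blue) on Sp.NK. Dividing cells (0.30) and aquaporins (0.27) have the highest medians and the shoot markers the lowest (−0.62), while MYB factors and cytochrome P450s hold the most calls, 10 each.

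The list of expansins and xyloglucan endotransglucosylases, which loosen the wall, also took in proteins with only the RlpA-like barrel. It had 1 higher and 3 lower of 77 tested and a median of −0.38, with 36.4% of members above 0. Those lower were the RlpA-like genes TEA025086 and TEA025076 given above and a xyloglucan enzyme, and none of them had both expansin domains. The xyloglucan enzyme TEA021989 (scaffold 4096, 543565 to 547840, minus strand, 4 exons) had 35.4, 65.7 and 40.9 CPM on Sp.NK and 147, 114 and 121 on U.NK (−1.42 ± 0.32, adjusted p = 0.037). The member that rose, TEA033642, has both expansin domains (scaffold 973, 627240 to 628912, minus strand, 4 exons) and was the most abundant of all higher genes per length, at 366 FPKM on Sp.NK and 110 on U.NK. Its CPM were 263, 390 and 118 against 81.8, 67.5 and 80.8 (1.74 ± 0.39, adjusted p = 0.039). A newly assembled cellulose synthase (24.2, 52.0 and 21.4 CPM against 98.0, 79.1 and 77.0, adjusted p = 0.021) and the fasciclin protein TEA005284 (1.74, 2.55 and 1.97 against 8.38, 11.4 and 12.4, adjusted p = 0.0080) were the 2 lower genes of 76 in the list of wall synthesis and wall proteins. The family 28 polygalacturonase TEA023833, which cuts pectin, was the 1 lower gene of 128 pectin enzymes (−3.05 ± 0.64). In the list of Casparian strip, dirigent and suberin genes 2 of 113 were lower, both GDSL lipases. TEA018069 (scaffold 2493, 1412047 to 1418869, plus strand, 5 exons) had 1.94, 3.02 and 0.684 CPM against 23.3, 37.8 and 28.8 (−4.00 ± 0.54, adjusted p = 0.0042) and was called in all 6 fits with a library left out.

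Oxidative enzymes had calls in both directions. Of 118 peroxidases 1 was higher and 3 lower. The peroxidase TEA008609 was higher in every Sp.NK library (26.1, 27.3 and 21.4 CPM against 7.72, 5.10 and 6.41, 1.96 ± 0.29, adjusted p = 0.0044). TEA015018 and TEA015011 stand 28289 bases apart on scaffold 313 and were both lower. The first had 0.818, 1.15 and 0.965 CPM against 4.04, 6.04 and 3.32 (−2.19 ± 0.31, adjusted p = 0.0042) and the other 10.9, 16.9 and 15.9 against 38.7, 67.0 and 34.7 (−1.68 ± 0.29, adjusted p = 0.010). The third lower one, TEA015805, changed by −1.60 ± 0.35. The respiratory burst NADPH oxidase TEA032969, a source of reactive oxygen, was lower at 8.89, 10.5 and 10.6 CPM against 23.1, 23.1 and 22.7 (adjusted p = 0.028). It was not named by the rule. The multicopper oxidase TEA017186 (3.42, 2.30 and 3.58 CPM against 1.10, 0.997 and 0.679, adjusted p = 0.031) was the 1 call of 114 laccases and copper oxidases, and the glutathione S-transferase TEA026775 was lower (−3.42 ± 0.75) as the 1 call of 111, which was lost with voom (adjusted p = 0.067).

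Cytochrome P450s had 2 higher and 8 lower of 324 tested, beside 100 higher and 220 lower among all calls, a median of −0.21 and 38.6% of members above 0. TEA025080 had 6.39, 14.1 and 6.39 CPM on Sp.NK and 30.7, 37.8 and 40.8 on U.NK (adjusted p = 0.017), and TEA012273 changed by −1.67 ± 0.30. The UDP-glycosyltransferases, which attach sugars to hormones and phenolics, had 0 higher and 5 lower of 241. Of these a newly assembled member was called in all 6 fits with a library left out (4.24, 6.63 and 4.83 CPM against 14.4, 46.9 and 26.9, −2.49 ± 0.37, adjusted p = 0.0044), although 2 genes on the other strand overlap it. The entry list of phenylpropanoids and flavonoids had 2 lower of 72: the NmrA-like reductase TEA015016 (−2.91 ± 0.49) and a newly assembled O-methyltransferase (8.89, 18.9 and 11 CPM against 74.3, 53.6 and 63.1, adjusted p = 0.042). The 2-oxoglutarate dioxygenase TEA010600 (−2.77 ± 0.47) was the 1 call of 181. In the list named for oxygen shortage, TEA014496 (−2.27 ± 0.39) was the 1 call of 74 genes. It carries the GroES-like and zinc-binding domains of alcohol dehydrogenases, which alone do not mark a gene of oxygen shortage.

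MYB factors had 2 higher and 8 lower of 229 tested, with a median of 0.01. TEA012130 and TEA012145 are neighbours on scaffold 2606, 16040 bases apart on the plus strand, and changed alike, by −1.67 ± 0.26 and −1.67 ± 0.30 (adjusted p = 0.0053 and 0.012). Their CPM were 8.28, 8.25 and 9.57 against 22.1, 34.6 and 26.3 for the first, and 7.56, 7.65 and 6.51 against 17.6, 34.1 and 17.1 for the other. AP2/ERF factors, many of which act in ethylene responses, had 1 higher and 5 lower of 137. TEA000301 was the most read of those lower (51.4, 53.9 and 46.8 CPM against 83.6, 92.8 and 113, −0.93 ± 0.17, adjusted p = 0.015), and TEA030964 the higher one (9.71, 8.97 and 8.20 against 4.26, 3.38 and 3.54, adjusted p = 0.033). The list of GRAS, LOB and homeobox factors had 4 higher and 3 lower of 168 tested, with a median of 0.13. Its split by family here follows the calls. All 4 calls among the 73 tested GRAS proteins (median 0.29), regulators of root growth and gibberellin responses, were higher. Of these TEA024333 (82.7, 91.9 and 155 CPM against 35.5, 43.4 and 47.0) changed by 1.39 ± 0.30, TEA012309 by 1.18 ± 0.22, TEA016822 by 0.88 ± 0.20 and TEA021744 by 0.56 ± 0.13. All 3 homeobox genes called were lower, among them TEA025544 (21.9, 46.4 and 23 CPM against 75.1, 96.8 and 76.6, adjusted p = 0.030). Over the 62 homeobox genes tested the median was 0.04. WRKY, NAC, auxin and jasmonate lists held 0 edgeR calls of 73, 93, 109 and 37 genes, with 13, 19, 24 and 6 at an unadjusted p under 0.05. The 12-library fit called 4, 5, 7 and 2 of them, DESeq2 9, 11, 15 and 7, and voom 8, 8, 5 and 4. These fits called 1339 (4.05%), 2780 and 2506 of all genes, and 15.9% of all had an unadjusted p under 0.05 in the main fit. The list named for cytokinin, with 58 genes tested, took in any gene with a response regulator receiver domain. In it the response regulator TEA016053 was higher (11.2, 14.6 and 13.9 CPM against 7.13, 6.92 and 5.96) and the CCT-domain regulator TEA033521 lower (−1.57 ± 0.33). The receiver domain alone does not place either gene in cytokinin signalling.

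Of 406 NB-ARC immune receptors 1 was higher and 5 lower, so 1.48% were called beside 0.900% of all genes tested. Of their changes 36.0% lay above 0, beside 50.1% of all. TEA014472 (2.96, 1.19 and 1.41 CPM against 5.37, 12.4 and 11.8, −2.42 ± 0.35, adjusted p = 0.0042) was called in all 6 fits with a library left out. Of 215 lectin and wall receptor kinases 2 were higher and 1 lower. The wall-associated kinase TEA032573 had the tightest replicates of the named genes, at 61.3, 62.4 and 60.1 CPM against 28.6, 28.4 and 30.6 (1.07 ± 0.18, adjusted p = 0.0075). Among the 60 tested kinases with the salt stress and antifungal domain, 3 were higher and 1 lower. TEA023634 (20.3, 20.2 and 34.5 CPM against 4.26, 6.43 and 9.58) and TEA023645, which changed by 1.60 ± 0.35, are neighbours on scaffold 1243. These kinases were picked out by their calls. Pathogenesis-related proteins gave 0 edgeR calls of 84, with a median of −0.24, lipid transfer proteins and protease inhibitors 0 of 50, and heat shock proteins 0 of 310, with 10, 7 and 52 at an unadjusted p under 0.05. The 12-library fit called 3, 1 and 14 of them, DESeq2 12, 7 and 27, and voom 9, 3 and 18. Calls over all genes numbered 1339 (4.05%), 2780 and 2506 in these fits, and 15.9% had an unadjusted p under 0.05 in the main fit.

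Lists of growth lay slightly above 0 with few calls in the main fit. Ribosomal proteins had a median of 0.23, with 77.1% of 353 members above 0, and genes of dividing cells a median of 0.30, with 72.9% of 181 above 0, beside 50.1% of all genes tested. Each list had 1 gene called higher and 1 called lower. In the dividing-cell list these were a pair of newly assembled cyclins (7.56, 3.57 and 7.04 CPM against 1.10, 1.5 and 2.04 for the higher, and 0.102, 0.128 and 0.322 against 0.662, 4.76 and 1.36 for the lower). Summed CPM of the ribosomal list was 27547 to 32814 on Sp.NK and 22629 to 28270 on U.NK, so the groups overlapped. At an unadjusted p under 0.05, ribosomal genes were 65 higher and 11 lower, and dividing-cell genes 31 and 6. The 12-library fit called 16 higher and 1 lower of the first list, and 9 and 2 of the second. DESeq2 called 32 and 20, and voom 29 and 14. Over all genes these fits called 1339 (4.05%), 2780 and 2506, and 15.9% had an unadjusted p under 0.05 in the main fit. The shoot marker list ran the other way, with 19.2% of 52 members above 0, a median of −0.62 and 1 member called, the chlorophyll-binding protein TEA032678 (8.58, 22.9 and 9.21 CPM against 36.1, 39.0 and 29.9, adjusted p = 0.041, or 0.064 with edgeR on the 6 libraries). In the shoot marker list 1 higher and 19 lower genes had an unadjusted p under 0.05 in the main fit. The 12-library fit called 1 of them higher and 2 lower, DESeq2 called 12 and voom 16. Summed CPM of this list was 889 to 1735 on Sp.NK and 1881 to 2008 on U.NK. The medians of the ribosomal, dividing-cell and shoot marker lists moved by less than 0.01 when DESeq2's size factors were used in place of TMM. They were then 0.22, 0.30 and −0.63.

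Counted by Pfam description, and thus chosen by the calls themselves, 7 descriptions held at least 4 called genes in 1 direction. Those lower were Cytochrome P450 (8 of 324 tested), Myb-like DNA-binding domain (8 of 229), Protein kinase domain (7 of 1020), AP2 domain (5 of 137), UDP-glycosyltransferase (5 of 241) and NB-ARC domain (5 of 406), and the 1 that was higher was the GRAS domain (4 of 73). For the kinases, 10 calls in both directions made 0.980% of those tested, close to the 0.900% among all genes. In the other descriptions the share called ran from 1.48% (NB-ARC) to 5.48% (GRAS). The lower gene with the most reads per length was TEA016957, with the hydrophobic seed protein domain of small proline-rich wall proteins, at 88.4 FPKM on Sp.NK and 679 on U.NK. It had 50.1, 210 and 63.4 CPM against 986, 670 and 818 (−2.93 ± 0.65, adjusted p = 0.036), and was chosen after its values were seen.

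Whether the K side behaved differently from the K-free side of the same plants was asked by comparing Sp.SK with U.SK, with no library in common with the first comparison. This comparison was added after values had been seen. For nearly every called gene the K-free side had moved the same way. Of the 100 genes higher on Sp.NK, 96 were also above U.SK on Sp.SK and 55 were called higher there, where 2.58% of all genes were called higher. Of the 220 lower genes, 219 were below U.SK and 140 called lower, against 4.24% of all genes. Of all genes tested, 48.5% lay above and 49.8% below U.SK. None (0) was called in the opposite direction. Median changes on the K-free side were 0.80 and −1.32. For example, TEA022010 had 5.72 ± 1.25 CPM on Sp.SK and 23.4 ± 7.23 on U.SK, TEA024786 had 40.3 ± 4.93 and 131 ± 19.1, and TEA013439 had 77.9 ± 11 and 33.4 ± 3.04 (SD, n = 3). In these examples the levels on both sides of the split plants lay together, away from both uniform conditions. Not every called gene did so: TEA012309 had 115 ± 33.2 CPM on Sp.NK and 55.1 ± 2.96 on Sp.SK. Its uniform levels were 50.8 ± 5.22 on U.NK and 42.4 ± 5.52 on U.SK. Since Sp.NK and Sp.SK roots came from the same plants, any other difference between split and uniform plants cannot be told apart from the K treatment.

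**Figure D4:**
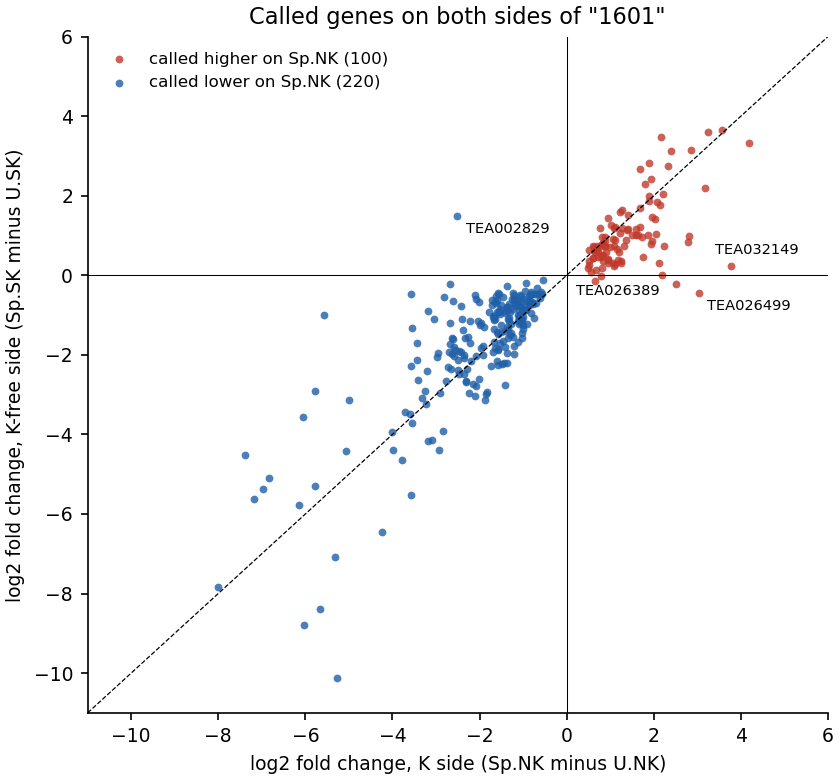
Each point is 1 of the 320 called genes, with its log2 fold change on the K side (Sp.NK minus U.NK, x axis) and on the K-free side (Sp.SK minus U.SK, y axis), and the dashed line marks equal change. All but 5 points have the same sign on both axes, and TEA026389, TEA026499 and TEA002829 are among the 5.

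Whether a gene changed more on 1 side was tested next. The difference between the changes on the 2 sides was tested in the same fit, where edgeR called 1 of the 35557 genes (0.00281%) and 0 of the 320, with 2058 and 51 at an unadjusted p under 0.05. The MYB factor TEA026389 had the smallest p among the named genes. It had 7.56 ± 2.55 CPM on Sp.NK and 1.39 ± 0.303 on Sp.SK, beside 1.32 ± 0.532 on U.NK and 1.61 ± 0.305 on U.SK (SD, n = 3). The difference of its changes was 2.74 ± 0.53 (adjusted p = 0.217). The P450 gene TEA026499 had 14 ± 2.16 CPM on Sp.NK and 1.39 ± 0.664 on Sp.SK (difference 3.49 ± 0.82, adjusted p = 0.370). Expansin TEA033642 had 257 ± 136 and 117 ± 35.2 (difference 1.29 ± 0.54, adjusted p = 0.755). TEA002829, without a Pfam domain, changed by −2.51 on the K side and by 1.49 on the K-free side (adjusted p of the difference 0.185). None of these 4 differences passed the threshold.

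In “1511” few of the 320 genes were called. Its libraries were more variable, with a common biological coefficient of variation of 0.297 on Sp.NK and 0.389 on U.NK, against 0.270 and 0.176 in “1601”. Its U.NK replicates 2 and 3 correlated at 0.923. The part of this spread in the differences below was not tested. Of all genes, 950 were higher (2.67%) and 690 lower (1.94%) in its Sp.NK roots. Of the genes higher in “1601”, 3 of 100 were called higher and 1 lower in “1511”, and of those lower in “1601”, 20 of 220 were called lower and 7 higher. The 3 make 3.00% of the higher genes and the 20 make 9.09% of the lower ones. The sign was the same in “1511” for 70 of the 100 higher genes, where 48.4% of all genes tested were positive, and for 137 of the 220 lower genes (62.3%), where 49.7% of all were negative. The difference of the change between the genotypes was called for 82 genes (0.231% of those tested), with 62 more negative in “1601”, and 39 of the 82 were among the 320. Both tests used the same “1601” libraries, which favoured this overlap. The count of 82 ran from 7, without “1511” Sp.NK replicate 3 or “1511” U.NK replicate 1, to 917, without “1511” U.NK replicate 3.

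The xyloglucan enzyme TEA021989 had the smallest p for this difference of the named genes. In “1601” it was lower on Sp.NK (47.3 ± 16.1 CPM against 127 ± 17.3), and in “1511” higher (19.0 ± 3.82 against 4.09 ± 1.94), a difference of −3.64 ± 0.46 (SE, adjusted p = 0.0027). The GDSL lipase TEA018069 was at 10.6 ± 4.20 and 10.6 ± 8.37 CPM in “1511” while it fell in “1601” (difference −4.00 ± 0.71, adjusted p = 0.030). For the sugar carrier TEA013461, “1511” had 402 ± 55.4 CPM on Sp.NK and 308 ± 16.2 on U.NK (SD, n = 3), and the difference was −1.38 ± 0.28 (adjusted p = 0.045). The strongly reduced RlpA gene TEA025086 did not pass this test. In “1511” it had 66.3, 173 and 29.8 CPM on Sp.NK and 146, 3063 and 212 on U.NK, so 1 U.NK library stood far above the rest. The difference between the genotypes was −2.37 ± 1.49 (adjusted p = 0.562).

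The number of calls depended on single libraries. Without Sp.NK replicate 1, 2 or 3 the comparison called 28, 686 and 31 genes, and without U.NK replicate 1, 2 or 3 it called 119, 29 and 97. Replicate 2 was the Sp.NK library nearest the U.NK mean in 224 of the 320 genes. With it left out, 282 of the 320 calls were kept in the same direction. The calls that remained in each of the 6 fits numbered 18, and 32 were called in 0 of them. Besides TEA004995, TEA018069, the newly assembled UDP-glycosyltransferase, TEA014472, TEA024786, TEA015018, TEA012130, TEA008609 and TEA026389 among the named genes, the 18 included the leucine-rich repeat protein TEA033550, which had the largest negative change of the genes outside the rule that held throughout (0.562, 1.53 and 1.73 CPM against 13.4, 36.0 and 12.8, −4.01 ± 0.43, adjusted p = 0.00035). Each other named gene lost its call without at least 1 library.

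**Figure D5:**
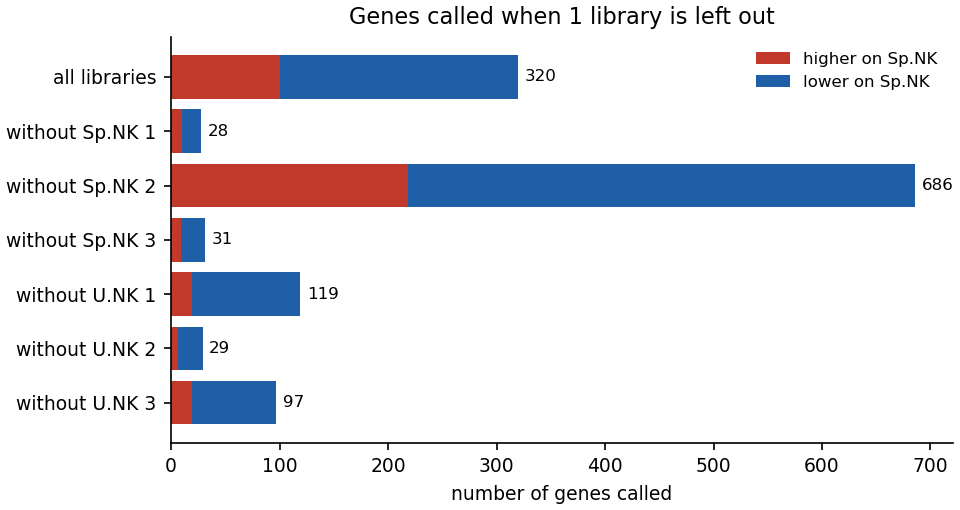
Number of genes called higher (red) and lower (blue) on Sp.NK with all libraries and with each of the 6 compared libraries left out. The total is 320 with all libraries, rises to 686 without Sp.NK replicate 2 and falls to between 28 and 119 without any other.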

How the data were processed

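Roots were sequenced by RNA-seq in 24 libraries of 8 groups of 3, assigned by the sample titles. Per the labels and methods, reads were base-called with CASAVA 1.7, cleaned and aligned with HISAT2 2.0.5 to the scaffold-level tea genome, and newly assembled genes were added. The deposited table holds raw counts of reads per gene, not normalized, and a deposited table of FPKM values accompanies it. The program that made either is not given in the sources used here.

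Of 48505 genes, edgeR's filterByExpr kept 35557. Counts were scaled by TMM and fitted with glmQLFit (edgeR 4.0.16, R 4.3.3) over all 24 libraries (16 residual degrees of freedom), and contrasts were tested with glmQLFTest and Benjamini-Hochberg adjustment over all genes tested, at 0.05. The standard error is the log2 fold change over the root of its F statistic. FPKM served only to compare levels between genes. The script was tested on simulated data.

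Named genes were the 12 largest changes in each direction among called genes whose libraries did not overlap and whose mean was at least 1 CPM, up to 2 called genes per direction of each of 39 Pfam word lists, and the 2 most read K carriers and cellulases. The groups and lists were chosen with earlier results of these data known. Alternatives were DESeq2 size factors, other filters, newly assembled genes left out, the replicate number as a block, limma 3.58.1 voom, fewer libraries, DESeq2 1.42.0, and each library left out. The methods give 3 replicates per treatment and several plants per root box, but do not tie libraries to boxes, so p-values measure the spread between these libraries. A table of reference gene names matched 0 identifiers. No sequence is shown.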

Additional observations from a re-analysis of the deposited data

Results flagged for a closer look

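In 11 named genes the Sp.NK change differed between “1601” and “1511” by edgeR's test of the difference (adjusted p under 0.05). All 11 had been named for a call in “1601”, and this test used the same “1601” libraries. The choice of genes thus favoured a larger change in “1601” than in “1511”. The differences (“1601” minus “1511”, log2) were −3.64 for the xyloglucan enzyme TEA021989 (adjusted p = 0.0027), −4.00 for the GDSL lipase TEA018069, −4.61 for TEA004995, −2.76 and −1.38 for the sugar carriers TEA000047 and TEA013461, −2.75 for the fasciclin protein TEA005284, −2.66 for the immune receptor TEA014472, −2.15 for the peroxidase TEA015018, −1.79 for the MYB factor TEA012130, 1.86 for the AP2 factor TEA030964 and 3.94 for TEA028113, with adjusted p-values from 0.030 to 0.045 for the last 10. The value of TEA004995, with 2, 1 and 6 reads on Sp.NK in “1601”, depends on the small count added by the fit and gives no size of change. The same holds for TEA028113, with 5 reads in all on Sp.NK and 18 on U.NK in “1511”, where the libraries overlapped. In 6 of the 11, the change in “1511” was at most 0.40 in size on the log2 scale: TEA018069 (0.00), TEA015018 (−0.04), TEA012130 (0.12), TEA014472 (0.24), TEA013461 (0.38) and TEA005284 (0.40).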

How the results depend on the processing

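The 320 calls between Sp.NK and U.NK became 1339 with the 12 libraries of “1601”, 1116 with edgeR on the 6 libraries compared, 2780 with DESeq2 on these, and 2506 with limma voom and quality weights, of which 307, 266, 299 and 311 were among the 320. The higher share, 31.3%, was 42.4%, 36.4%, 41.5% and 43.3% there. With 1 library left out the count ran from 28 to 686. Thinning all libraries to equal totals, added after the data were seen, gave 339. The 82 genes that differed between genotypes became 6, 664 and 2962 with edgeR on the libraries compared, DESeq2 and voom, and ran from 7 to 917 with 1 library left out (917 without “1511” U.NK replicate 3). The cause was not tested. Of the 83 named genes, 5 lost their call with voom, 5 with edgeR on the 6 libraries, 1 with DESeq2, 1 with 12 libraries, 9 without a filter, 6 with thinning and 13 with the block, and leaving out 1 library ended from 5 (Sp.NK replicate 2) to 68 (Sp.NK replicate 1). Numbers pair no samples by the labels, and same-numbered Sp.NK and U.NK libraries deviated together by r = −0.049, 0.056 and −0.053. With the replicate block 304 genes were called (67 higher), 241 of them shared, and 95 differed between genotypes. The uncalled cellulase TEA031308 turned to −0.14 with voom, −0.05 with the block, and ran from −0.29 to 0.42 with 1 library left out. The share of calls with the same sign on the K-free side was 98.4% and at least 91.2% in every setting. Depth limits genes with few reads.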
